A study of Mus musculus with 9 samples.

Results

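In cells of the developing mouse cortex, 5281 circular RNAs (circRNAs) were counted. Of these, 90 came from 46 genes whose symbols begin with Zfp, Zbtb, Zfhx or Zkscan followed by a digit. Such symbols are given to genes of zinc finger proteins, and not every one of these is a transcription factor. The parental gene was the one that the study's circRNA list names for 13 of them. For the other 77 it was the gene that contains the coordinates on the same strand in the GENCODE vM1 annotation of mm9. Zfp genes gave 81 circRNAs from 38 genes, Zbtb genes 5 from 5, Zfhx genes 2 from 2 and Zkscan1 2. The rule used gene symbols and not levels, and it was set with earlier results of these data known. The cells were sorted from the lateral cortex of C57BL/6 embryos at embryonic day (E) 14.5, collected from mothers heterozygous for both a Btg2-driven RFP and a Tubb3-driven GFP reporter. Proliferative progenitors (PP) carried neither reporter signal, differentiative progenitors (DP) carried RFP alone, and newborn neurons (N) carried GFP, with or without RFP. Every library therefore shared strain, age, dissection and reporters, and a cell type here is what the reporters define. Each cell type had 3 biological replicates. Total RNA was digested with RNase R, which degrades linear RNA, and sequenced with strand information and without mRNA enrichment. The values are reads counted over the sequence of a circRNA, which was its exons for most, and not only over its backsplice junction, so that linear RNA that survived the digestion can enter them.

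Zinc finger proteins of the C2H2 type hold a zinc ion between a pair of cysteines and a pair of histidines, and strings of such fingers read DNA sequence. They are the largest class of transcription factors in mammals, and many carry a further domain, such as the BTB domain of Zbtb proteins or the KRAB repressor domain of many Zfp proteins, usually encoded upstream of the fingers. circRNAs arise when the end of an exon is spliced back to the start of the same or an earlier exon. In the cortex, proliferative progenitors give rise to differentiative progenitors, which divide to produce neurons, and zinc finger factors act at several of these steps.

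The joint that makes a circle is its backsplice junction. It is given here for the 4 circRNAs that differed between cell types and for 1 circle each of 5 further genes that the text describes. Each line has 30 bases read 5′ to 3′ along the gene's strand from the mm9 genome, with the last 15 bases of the last exon in capitals and the first 15 of the first exon in lower case. The genomic spans were chr13:64243516-64246988 on the minus strand (Zfp367, exons 2 to 4), chr3:5241670-5245645 on the plus strand (Zfhx4, exons 2 and 3), chr16:43569794-43577861 on the plus strand (Zbtb20, exons 10 to 13) and chr8:112231929-112246953 on the plus strand (Zfp821, exons 3 to 8). They were chr9:65642429-65643302 on the minus strand (Zfp609, exon 2), chr8:81642074-81660562 on the plus strand (Zfp827, exons 6 to 8), chr4:55063058-55085977 on the plus strand (Zfp462, exons 8 to 11), chr16:33421407-33468269 on the plus strand (Zfp148, exons 2 to 7) and chr5:138534148-138535367 on the plus strand (Zkscan1, exons 2 and 3).
Zfp367, CiCo_mm9_circ_001665: TGAGTGGCTGGCAAAgatggaatccgacgt
Zfhx4, CiCo_mm9_circ_004074: CTGAAACTCTACAAGgtccctgacaggctg
Zbtb20, CiCo_mm9_circ_002393: CCGGGTCATCTGATTatgcagccactctct
Zfp821, CiCo_mm9_circ_006062: CGCCACTTTTAACAGgtctgaaaagaactg
Zfp609, CiCo_mm9_circ_006710: GTCAAGTCTGAAAAGcaatgatgttgtcca
Zfp827, CiCo_mm9_circ_006317: GAGTGTCTGCTCCAGcggaaagctacaagg
Zfp462, CiCo_mm9_circ_004627: AGGCTGAGGACAGAGactcctcttactcgg
Zfp148, CiCo_mm9_circ_002354: AGAAGATCCATACCGgatagaagagaagaa
Zkscan1, CiCo_mm9_circ_004942: GTCTCTTATCCCGAGgaatagtggaggaac

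The reporters could be checked only through circRNAs of marker genes, because defining genes such as Pax6, Sox2, Eomes, Tubb3 and Dcx had no circRNA in the table. The 29 circRNAs of 8 PP marker genes, with Cdon the most abundant, summed to 1514, 1766 and 1362 CPM (read counts scaled to a common library size) in the 3 PP libraries, to 719, 910 and 713 in DP and to 189, 167 and 159 in N. The 21 circRNAs of 7 N marker genes, led by Bcl11b, summed to 9.85, 8.06 and 20.0 CPM in PP, to 76.0, 59.4 and 84.8 in DP and to 414, 332 and 345 in N. Both sums ran along the lineage that the labels give and did not overlap between cell types. The DP markers had 2 circRNAs, from 2 of 10 genes, led by Elavl4, which summed to 6.48, 5.80 and 5.11 CPM in PP, to 22.97, 22.2 and 19.9 in DP and to 10.2, 12.8 and 13.3 in N. No circRNA was listed for any gene of the endothelial, microglia and blood, pericyte and meninges, interneuron or oligodendrocyte precursor lists.

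Before the comparisons, 2 libraries have to be named, because they stood apart from their replicates. CPM values are relative to effective library sizes, which were smallest for PP replicate 3 (2153859) and N replicate 1 (2259813). The 90 zinc finger circRNAs summed to 723 and 710 CPM in PP replicates 1 and 2 and to 1248 in PP replicate 3. They summed to 1320 CPM in N replicate 1 and to 769 and 883 in N replicates 2 and 3, while the DP libraries lay between 777 and 788. On the scale of log2(CPM + 1), 28 of the 77 zinc finger circRNAs that passed the filter on low counts (36.4%) were more than 1 log2 unit higher in PP replicate 3 than in the mean of the other PP replicates, beside 15% of all 4406 circRNAs tested. A drop of more than 1 log2 unit was seen for 8 (10.4%), beside 11.8% of all. In N replicate 1, 11 of the 77 (14.3%, beside 8.97% of all) were as much higher than in the other N replicates and 6 (7.79%, beside 13.1%) as much lower. The numbers of circRNAs called are therefore given with all 9 libraries and again without these.

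**Figure D1:**
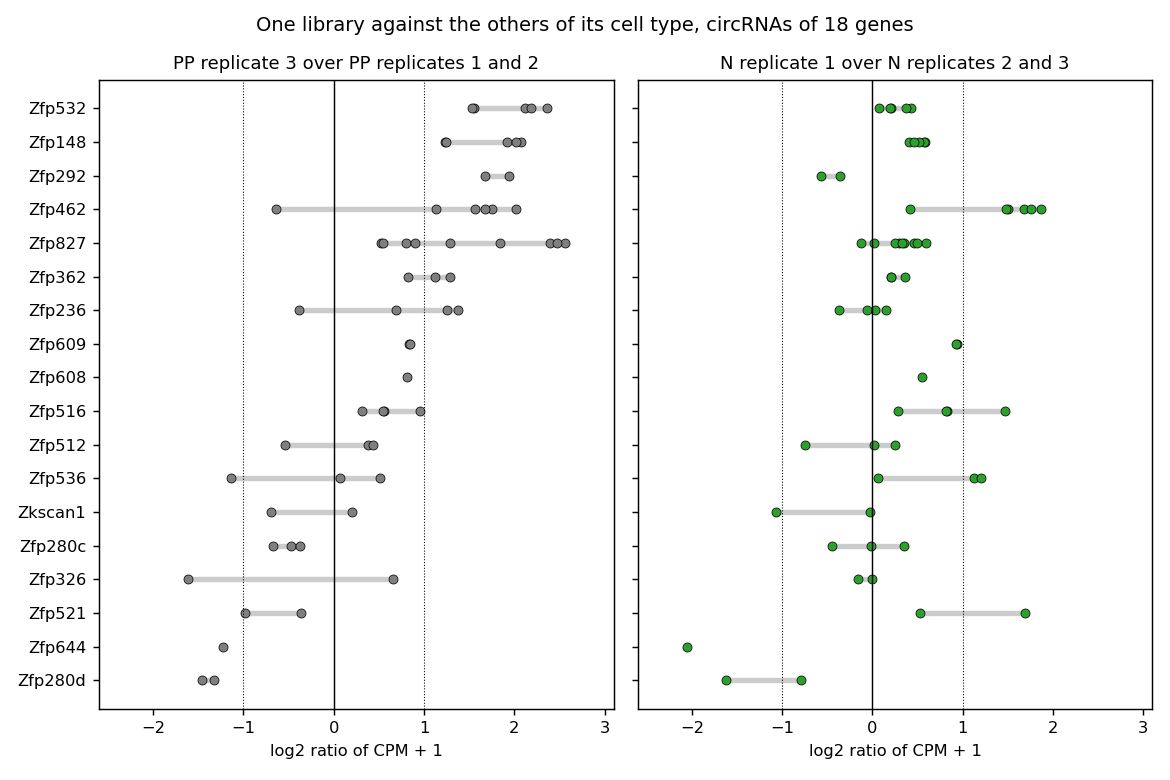
Log2 ratio of CPM + 1 of each zinc finger circRNA in PP replicate 3 over the mean of PP replicates 1 and 2 and in N replicate 1 over the mean of N replicates 2 and 3. Shown are the 59 circRNAs that passed the filter on low counts, from 18 genes with several circRNAs. All 5 circles of Zfp148 and all 5 of Zfp532 lie above 1 in the PP ratio, and the circles of Zfp280c lie below 0.

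In all, 4 circRNAs, each from its own gene, differed between N and PP with all 9 libraries. Those of Zfp367, of Zfhx4, which encodes a very large protein with zinc fingers and homeodomains, and of Zbtb20, which encodes a BTB repressor used in cortical and hippocampal neuron development, were lower in N. The circRNA of Zfp821, a little studied gene whose protein has 2 C2H2 motifs, was higher in N. They were 4 of 77 tested (5.19%), with 1 higher and 3 lower, where the same test called 28.1% of all 4406 circRNAs, 13.7% higher and 14.4% lower. At an unadjusted p under 0.05, 11 of the 77 (14.3%) were reached, beside 37.7% of all. Bulk counts of this kind cannot tell fewer expressing cells from less RNA per cell.

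The Zfp367 circRNA had 4.41, 3.71 and 1.86 CPM in the PP libraries, 2.38, 1.602 and 1.61 in DP and 0, 0 and 0.164 in N. Every PP and DP library was above every N library, and all N libraries together held a single read. The ratio of CPM rested on 44 reads in PP against 1 in N and was 61.1, with an exact 95% counting interval from 10.4 to 2468. Against DP, with 47 reads, it was 31.9 (5.45 to 1285), and these intervals cover counting error only. The edgeR adjusted p was 0.000109 for N against PP and 0.000983 for N against DP. Its exons encode residues 131 to 267 of 340, which hold the only C2H2 motif found in that protein.

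The Zfhx4 circRNA had 16.9, 19.7 and 3.71 CPM in PP, 7.01, 7.76 and 9.68 in DP and 0.443, 2.67 and 2.13 in N. PP replicate 3 was the lowest PP library, and still every PP and every DP library exceeded all N libraries. The log2 fold change was -2.78 (SE 0.54, edgeR adjusted p = 0.00137) for N against PP and -1.998 (SE 0.53, adjusted p = 0.0158) for N against DP. The second call was lost with total-count scaling (edgeR adjusted p = 0.0787), without DP replicate 3 (0.0548) and without N replicate 3 (0.0635). DP lay below PP by a log2 fold change of -0.78, which did not pass (adjusted p = 0.567). Without PP replicate 3 that step became -1.15 with an adjusted p of 0.0401. This is a long circle of 3055 exon bases that holds the start codon and encodes residues 1 to 1003 of 3581, with 7 of the 19 motifs of the protein.

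The Zbtb20 circRNA had 4.93, 4.51 and 22.7 CPM in PP, 4.53, 5.67 and 5.34 in DP and 3.54, 1.86 and 2.46 in N. PP replicate 3 was more than 4 times the other PP libraries, and those were still above each N library. The log2 fold change of N against PP was -2.01 (SE 0.58, edgeR adjusted p = 0.0176) and fell in size to -0.97 (SE 0.34, adjusted p = 0.0390) without PP replicate 3. The call was lost without N replicate 2 (edgeR adjusted p = 0.0781) and without N replicate 3 (0.0661). Against DP it was -1.08, which did not pass with all 9 libraries (adjusted p = 0.233) and passed without PP replicate 3 (0.00879). The circle covers residues 1 to 67 of 741 and none of the 5 motifs.

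The Zfp821 circRNA had 3.63, 5.16 and 4.64 CPM in PP, 7.01, 7.52 and 7.07 in DP and 17.7, 11.9 and 12.5 in N. The cell types did not overlap at either step, with PP lowest and N highest. The log2 fold change was 1.61 (SE 0.31, edgeR adjusted p = 0.00140) for N against PP and 0.93 (SE 0.28, adjusted p = 0.0333) for N against DP. For DP against PP it was 0.67 (SE 0.31, adjusted p = 0.417). The N against PP call was lost when libraries were scaled to total counts, at 1.19 with an adjusted p of 0.225. The N against DP call was lost in 7 of 19 alternatives, among them total counts (edgeR adjusted p = 0.788), a replicate block (0.0719) and the omission of DP replicate 1 (0.130), DP replicate 2 (0.117), DP replicate 3 (0.117) or N replicate 3 (0.0785). The circle encodes residues 1 to 196 of 413 and holds both motifs of the protein.

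**Figure D2:**
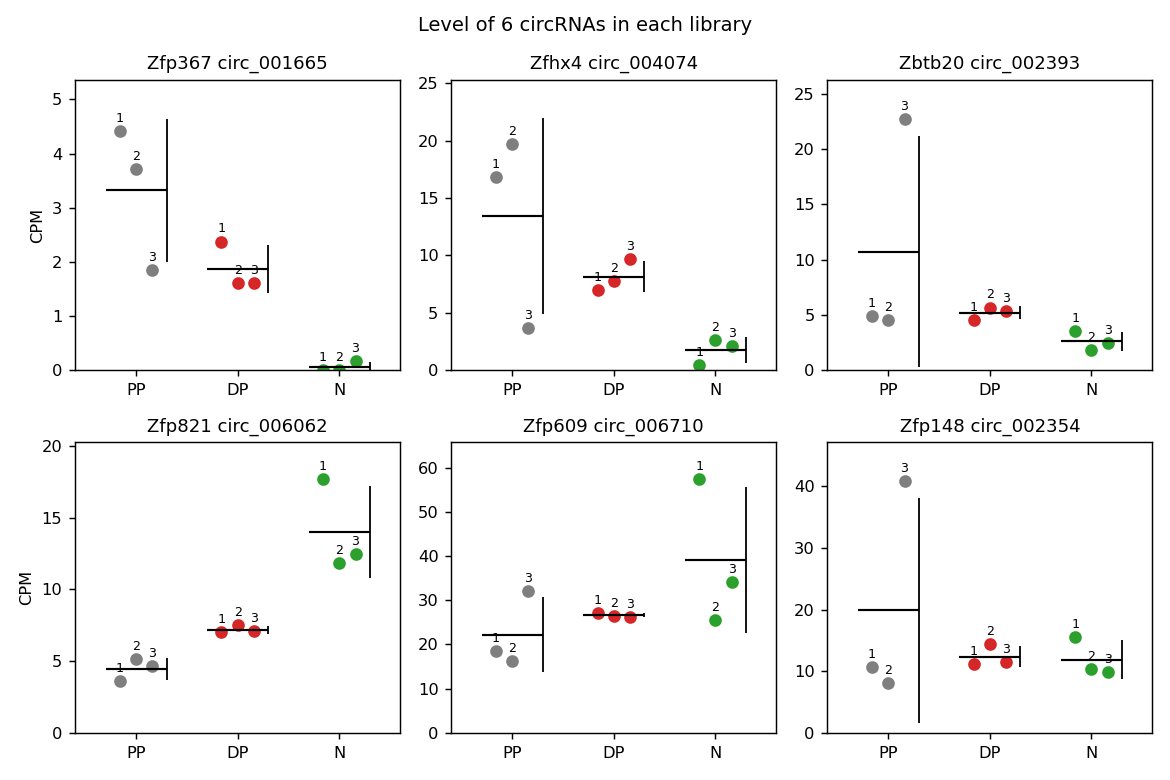
CPM of 6 zinc finger circRNAs in each library, with points numbered by replicate within PP, DP and N, the mean as a horizontal line and 1 SD (n = 3) as a vertical line. Zfp367 is near 0 in all N libraries, Zfhx4 is lower in every N library than in any PP or DP library, Zfp821 is highest in N, and the PP spread of Zbtb20 and Zfp148 comes from replicate 3.

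N was then compared with DP, and DP with PP. These comparisons share libraries with the first, so that their values are set side by side only. Between N and DP, 3 of 77 zinc finger circRNAs (3.90%) passed, that of Zfp821 higher and those of Zfhx4 and Zfp367 lower in N, where 18.8% of all circRNAs did, 9.03% higher and 9.8% lower. An unadjusted p under 0.05 was reached by 9 (11.7%, beside 28.5% of all). Between DP and PP edgeR called 0 of 77, with 3 at an unadjusted p under 0.05 (3.90%, beside 11.5% of all), and DESeq2 called 0 as well, where edgeR called 1.86% of all. That unadjusted count was 17 of 79 without PP replicate 3 (21.5%, beside 17%) and 28 of 79 without PP replicate 3 and N replicate 1 (35.4%, beside 25.5%). In a test for any difference between the cell types 4 passed, beside 25% of all. The median log2 fold change over the 77 was 0.02 for N against PP, 0.14 for N against DP and -0.27 for DP against PP, beside -0.09, -0.02 and -0.06 over all circRNAs tested. The DP against PP median turned to 0.19 both without PP replicate 3, with 51 of 79 above 0 in place of 28 of 77, and without PP replicate 3 and N replicate 1 together. The median size of the change, whatever its sign, was 0.47, 0.38 and 0.43, beside 0.68, 0.51 and 0.34.

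Taking only whether the libraries of a pair of cell types overlap, 9 of the 77 (11.7%) did not overlap between N and PP, 4 of them higher and 5 lower in N, beside 36.5% of all circRNAs, 17.4% higher and 19.1% lower. Between N and DP 26 (33.8%) did not overlap, 17 higher and 9 lower in N, beside 38.8% of all, 17.7% higher and 21.1% lower. Between DP and PP it was 3 (3.90%), all higher in DP, beside 19.3% of all and 10.9% higher in DP. With all 9 libraries, the share of separated zinc finger circRNAs was thus below the background in both comparisons that include PP. It was nearer to the background in the comparison of N with DP. These counts include PP replicate 3, where 36.4% of the zinc finger circRNAs, beside 15% of all, were more than 1 log2 unit above the other PP replicates. Separation was not counted again without that library.

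**Figure D3:**
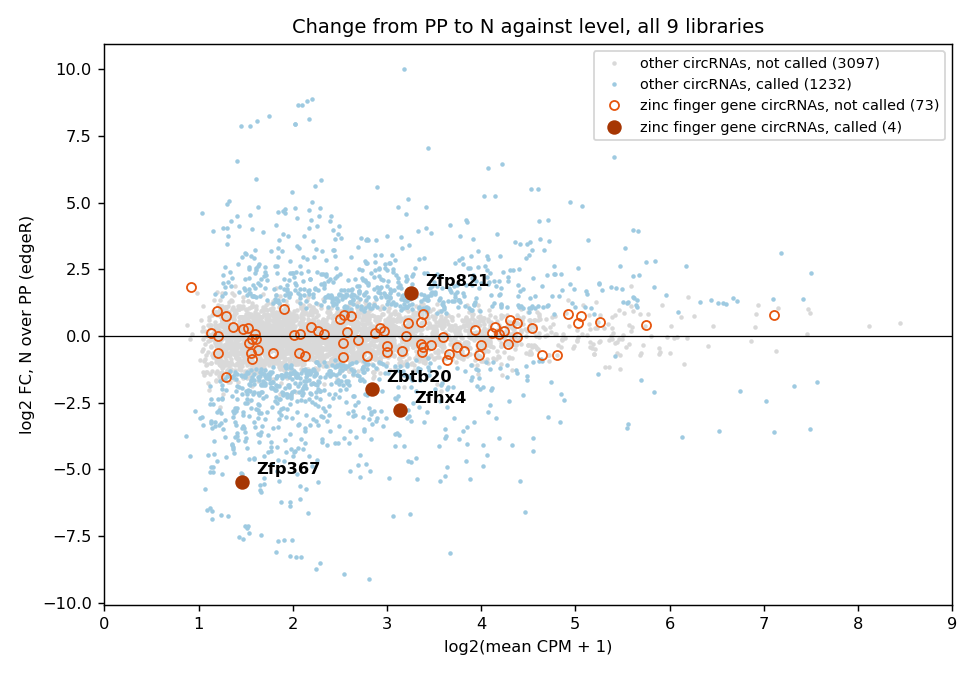
Log2 fold change of N against PP (edgeR, all 9 libraries) against the level as log2 of the mean CPM + 1 for every circRNA tested, with the 77 zinc finger circRNAs drawn over the rest and the 4 called ones named. Most zinc finger circRNAs lie within 1 log2 unit of no change over the whole range of levels.

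Leaving out PP replicate 3 raised the number called between N and PP from 4 to 23 of 79 tested (29.1%, beside 34.9% of all circRNAs in the same fit), and the median log2 fold change from 0.02 to 0.41, beside -0.02 over all. Over all circRNAs 18% were higher and 16.9% lower. The 16 higher in N came from 6 genes, with 5 circles of Zfp532, 4 of Zfp462, 3 of Zfp827, both of Zfp609 and 1 each of Zfp608 and Zfp821. The 7 lower in N came from Zfp367, Zfhx4, Zbtb20, Zfp105, Zfp207 and, with 2 circles, Zfp280c. Between N and DP 10 of 79 (12.7%, beside 26.4%) and between DP and PP 1 of 79 (1.27%, beside 3.9%) then passed. Without N replicate 1 the counts were 7 of 80 (8.75%, beside 28.8%), 4 of 80 (5%, beside 19.5%) and 0 of 80 (beside 2.96%), and the edgeR fit then had 3 of the 80 at an unadjusted p under 0.05 between DP and PP (3.75%, beside 14.2%).

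Without both libraries, 33 of 79 (41.8%) differed between N and PP, 21 higher and 12 lower, beside 42.2% of all circRNAs, 21.6% higher and 20.6% lower. Between N and DP 13 (16.5%, beside 33.9%) passed, of which 10 were lower in N, beside 17.3% of all. Between DP and PP 13 (16.5%, beside 14%) passed, of which 10 were higher in DP, beside 9.08% of all. Those higher in DP came from Zfp236, Zfp362, Zfp532, Zfp609 and Zfp827, and the 3 lower ones from Zfhx4, Zfp280d and Zfp367. The circRNAs of Zfp367, Zfhx4, Zbtb20 and Zfp821 were called between N and PP in all 4 of these sets of libraries, though the Zbtb20 call did not survive the loss of N replicate 2 or N replicate 3. Of the 23 called without PP replicate 3, 21 (91.3%) were also called without both libraries, where they made up 63.6% of the 33. The number of zinc finger circRNAs called therefore rested on PP replicate 3 more than on any other library, and the cause of its difference was not tested.

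**Figure D4:**
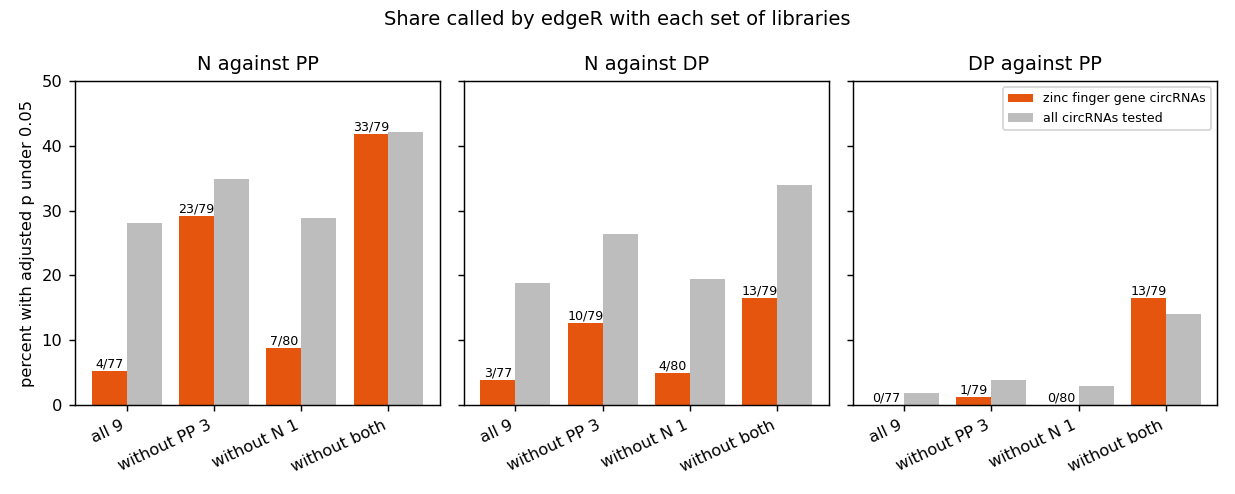
Percent of zinc finger circRNAs and of all circRNAs tested that edgeR called at an adjusted p under 0.05 in N against PP, N against DP and DP against PP, for all 9 libraries, without PP replicate 3, without N replicate 1 and without both. In N against PP the zinc finger share is 5.19% beside 28.1% with all libraries and 41.8% beside 42.2% without both.

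Zfp609, which works with Nipbl and the Integrator complex in the cortex, gave 2 of the most abundant circles, and its human counterpart gives a much studied circRNA from the second exon. The single-exon circle of exon 2, CiCo_mm9_circ_006710, had 18.4, 16.3 and 32.0 CPM in PP, 27.2, 26.5 and 26.3 in DP and 57.5, 25.6 and 34.1 in N. The circle of exons 2 and 3, CiCo_mm9_circ_006709, contains that exon and had 20.7, 19.0 and 36.2 CPM in PP, 28.7, 29.6 and 29.7 in DP and 62.4, 27.3 and 36.8 in N. In both circles PP replicate 3 and N replicate 1 were the highest libraries of their cell type, and PP and N overlapped through PP replicate 3. The log2 fold change of N against PP was 0.82 (SE 0.36, edgeR adjusted p = 0.114) for the exon 2 circle and 0.74 (SE 0.36, adjusted p = 0.155) for the longer one. It was 1.15 (adjusted p = 0.0128) and 1.07 (adjusted p = 0.0198) without PP replicate 3, and 0.80 (adjusted p = 0.00175) and 0.70 (adjusted p = 0.00508) without both libraries.

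Zfp462, which encodes a nuclear protein with many zinc fingers, had 6 circRNAs and held the most abundant one by CPM. CiCo_mm9_circ_004623, from exons 2 to 6, had 116, 122 and 76.1 CPM in PP, 131, 115 and 132 in DP and 217, 156 and 168 in N. Every N library was above every PP and DP library, and the log2 fold change of N against PP was 0.78 (SE 0.30, edgeR adjusted p = 0.0699). The circle of exon 10 alone, CiCo_mm9_circ_004628, had 7.52, 9.51 and 37.6 CPM in PP, 10.1, 7.89 and 9.55 in DP and 43.4, 11.5 and 12.8 in N. The first circle was lower in PP replicate 3 than in the other PP libraries and the second was about 4 times higher there, within the same gene and library. The other 4 circles, which start at exon 3 or at exon 8, were 2.22 to 3.51 times higher in PP replicate 3 and 2.86 to 3.76 times higher in N replicate 1 than in their replicates. Without PP replicate 3, 4 of the 6 were called higher in N than in PP, and without both libraries 2 were.

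Zfp827, whose protein binds the NuRD chromatin complex, had the most circRNAs, 9 overlapping circles from exons 2 to 8. The circle of exon 2 alone, CiCo_mm9_circ_006309, had 5.71, 6.61 and 9.29 CPM in PP, 7.35, 8.26 and 7.82 in DP and 12.4, 7.79 and 9.68 in N. The circle of exons 6 to 8, CiCo_mm9_circ_006317, had 5.71, 3.22 and 29.2 CPM in PP, 8.48, 8.01 and 7.45 in DP and 11.9, 7.67 and 8.70 in N. The 3' circle was 6.55 times higher in PP replicate 3 than in the other PP libraries and the 5' circle 1.51 times. For the 3' circle the log2 fold change of N against PP was -0.34 (SE 0.60, edgeR adjusted p = 0.722) with all libraries and 1.08 (SE 0.33, adjusted p = 0.0177) without PP replicate 3.

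The 5 circles of Zfp532 were 3.45 to 6.80 times higher in PP replicate 3 than in the other PP libraries. With all 9 libraries their log2 fold changes of N against PP ran from -0.033 to 0.30, 2 of them below 0, and none was called. All 5 were called higher in N without PP replicate 3, with log2 fold changes from 0.99 to 1.44, and all 5 again without both libraries. The 5 circles of Zfp148, a factor that binds GC-rich promoters, were 2.82 to 4.66 times higher in that library. The longest, CiCo_mm9_circ_002354, had 10.6, 8.06 and 40.9 CPM in PP, 11.2, 14.4 and 11.5 in DP and 15.5, 10.3 and 9.85 in N. Apart from PP replicate 3, N overlapped both other cell types and the DP libraries lay just above the PP ones, and the log2 fold change of N against PP was -0.71 (SE 0.50, edgeR adjusted p = 0.341) with that library and 0.32 (SE 0.29, adjusted p = 0.437) without it.

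The other 4 circles of Zfp148 are parts of the longest. CiCo_mm9_circ_002353 had 8.30, 6.45 and 34.4 CPM in PP, 9.62, 10.1 and 8.81 in DP and 10.2, 6.97 and 7.88 in N. CiCo_mm9_circ_002352 had 5.71, 1.93 and 17.2 CPM in PP, 5.43, 4.68 and 4.22 in DP and 6.20, 3.83 and 3.77 in N. In both, PP replicate 3 was above every other library. CiCo_mm9_circ_002355 had 2.85, 2.74 and 7.89 CPM in PP, 1.81, 4.68 and 3.23 in DP and 5.75, 4.18 and 3.28 in N. CiCo_mm9_circ_002356 had 2.33, 1.61 and 6.04 CPM in PP, 1.58, 3.94 and 2.48 in DP and 3.98, 3.25 and 1.97 in N. PP replicate 3 was again the highest library of each. With all 9 libraries the log2 fold changes of N against PP were -0.92 for CiCo_mm9_circ_002353, -0.76 for CiCo_mm9_circ_002352, 0.06 for CiCo_mm9_circ_002355 and 0.02 for CiCo_mm9_circ_002356, and none of these 4 was called in any of the 4 sets of libraries between N and PP.

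Among the remaining genes with 3 or more circRNAs, the log2 fold changes of N against PP without PP replicate 3 ran from -0.53 to 0.35 over the 4 circles of Zfp516 and from -0.71 to -0.62 over the 3 of Zfp536, a repressor of neuronal differentiation. Without both libraries 3 circles of Zfp516 and 2 of Zfp536 were called lower in N than in PP, and as many of each gene lower than in DP. Without N replicate 1 alone, 2 of Zfp516 and 1 of Zfp536 were called lower in N than in PP, and 1 of Zfp536 lower than in DP. The 3 circles of Zfp280c were lower in PP replicate 3, at 0.58 to 0.69 of the other PP libraries, and 2 were called lower in N without it. The 3 circles of Zfp362 and the 3 of Zfp512 had log2 fold changes of N against PP from 0.60 to 0.68 and from 0.29 to 0.80 without PP replicate 3, none of them called in that comparison. Without both libraries 2 circles of Zfp362 and 1 of Zfp512 were called higher in N than in PP, and 1 of Zfp512 was also called higher in N than in DP without PP replicate 3. The 4 circles of Zfp236 ranged from -0.74 to 1.05 in that fit, also without a call. Between DP and PP, 1 circle of Zfp236 and all 3 of Zfp362 were called higher in DP without both libraries. Of the 3 circles of Zfp521, a factor used in early neural differentiation, 2 were tested with all 9 libraries, and in the fit without PP replicate 3 the values of N against PP ran from 0.34 to 1.54 with no call. In that fit 1 circle of Zfp521 was called higher in N than in DP, and without both libraries 1 was called higher in N than in PP and 1 than in DP.

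Overlapping circles of a gene share exons, and 49 of the 90 overlapped another circle of their gene. In 5 cases of a circle whose exons are those of 2 smaller circles put together, its count over all libraries was 93.4% to 98.2% of the sum of the counts of the smaller ones. Nested circles of a gene are therefore largely the same reads and are not independent observations. Whether any circle changed differently from the other circles of its gene between PP and N was tested with edgeR's diffSpliceDGE over 57 zinc finger circRNAs of 16 genes. It called 0, with 0 at an unadjusted p under 0.05 and a lowest p of 0.120, beside 2 called of 3067 over all genes. In simulated counts this test recovered 20.7% of changed circles, so that a call of 0 leaves room for differences within a gene. Each circle was drawn on its own there, while nested circles in the data share reads, so that the recovery in these data can differ.

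Zkscan1, whose human counterpart is a common model of circRNA formation, had 2 circRNAs, neither of them called. The circle of exons 2 and 3, CiCo_mm9_circ_004942, had 4.41, 7.42 and 6.96 CPM in PP, 6.67, 6.16 and 8.44 in DP and 7.08, 8.37 and 6.07 in N. The circle of exons 4 and 5, CiCo_mm9_circ_004943, had 1.82, 2.42 and 0.929 CPM in PP, 3.17, 2.34 and 3.23 in DP and 0.443, 2.56 and 1.48 in N. PP and N overlapped in both, and the log2 fold changes of N against PP were 0.20 (SE 0.32, edgeR adjusted p = 0.695) and -0.10 (SE 0.50, adjusted p = 0.914). The second circle lay higher in DP, by 0.62 (SE 0.45, edgeR adjusted p = 0.680) over PP, and N lay below DP by a log2 fold change of -0.72 (SE 0.43, adjusted p = 0.311).

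The circRNA of Zfp451, which encodes a SUMO ligase, had 2.33, 3.22 and 1.86 CPM in PP, 1.13, 2.09 and 2.85 in DP and 1.77, 1.98 and 1.64 in N, and the cell types overlapped (log2 fold change of N against PP -0.52, SE 0.44, edgeR adjusted p = 0.436). The Zfhx3 circRNA, from the paralog of Zfhx4, did not pass the filter on low counts. It had 0.778, 0.967 and 1.39 CPM in PP, 0.453, 0.370 and 0.372 in DP and 0.443, 0.349 and 0 in N. PP libraries were above the others, but each value stands for at most 6 reads. No circRNA of Zbtb18, a repressor of neuronal migration and differentiation genes, was listed. In all 13 of the 90 circRNAs were not tested, and the precision of low values is limited, because 3 reads amounted to between 0.339 CPM in DP replicate 1 and 1.39 CPM in PP replicate 3.

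By mean CPM over the cell types, the 8 most abundant were CiCo_mm9_circ_004623 (137 CPM), CiCo_mm9_circ_004624 (52.9), CiCo_mm9_circ_004627 (37.4) and CiCo_mm9_circ_004626 (31.7) of Zfp462, CiCo_mm9_circ_006709 (32.3) and CiCo_mm9_circ_006710 (29.3) of Zfp609, CiCo_mm9_circ_001111 of Zfp207 (27.0) and CiCo_mm9_circ_003127 of Zfp516 (23.9). Zfp207 encodes a spindle protein. The lowest were those of Zbtb16 (0.246 CPM), CiCo_mm9_circ_003004 of Zfp608 and CiCo_mm9_circ_004772 of Zfp644 (0.365). Per length, as CPM per kilobase of counted sequence (RPKM), the order changed and 4 of the 8 remained among the first 8. CiCo_mm9_circ_004628 of Zfp462 then led with a mean of 74.0 RPKM, where its libraries ran from 33.4 to 193 with a median of 44.8. It was followed by CiCo_mm9_circ_006710 of Zfp609 with 33.5 (18.6 to 65.7) and CiCo_mm9_circ_006316 of Zfp827 with 31.4 (9.67 to 96.0), and the ranges of these 3 overlapped. The median over the 90 was 7.99 RPKM, beside 6.76 over all 5281 circRNAs.

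The exon structure of the circles was read from the annotation. Of the 90, 88 started and ended at annotated exon ends, and all 88 had AG before the first and GT after the last base of the circle in the genome. Their median counted length was 507 bases, beside 472 over all 5097 genic circRNAs, and their median number of exons was 2, beside 3. Single-exon circles made up 17% and 2-exon circles 40.9%, beside 9.26% and 30.9%. The first exon of the circle was exon 2 of the transcript in 36.4%, beside 28.5%. The counted length exceeded the exon bases in 14 (15.9%, beside 10.9%), and in 13 of these the excess matched 1 to 3 introns, among them the 3 circles of Zfp362 and 5 of Zfp462. Of these 14, 8 were more than 1 log2 unit higher in PP replicate 3 than in its replicates, and of the other tested ones 20 of 62 were.

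The most common exon length in the 2-exon zinc finger circles was 127 bases, and it was picked for this reason. An exon of 127 bases lay in 11 of the 88 circles (12.5%, beside 2.77% of all genic circRNAs), and 7 were pairs of exons that hold one (7.95%, beside 0.549%). Because the length was taken from these same circles, a share above that of all circRNAs was built in, and these shares are a description only. The pairs came from Zfp707, Zfp398, Zfp606, Zfp568, Zfp382, Zfp90 and Zkscan1, which belong to the KRAB zinc finger genes, a large group of mostly repressive factors that expanded by duplication. The pairs of 2 genes are shown to let the likeness be seen, Zfp606 (chr7:13074919-13075393, exons 5 and 6) and Zfp568 (chr7:30782769-30783229, exons 5 and 6), both on the plus strand of mm9, with the 127-base exon in lower case and the next exon in capitals.
Zfp606, CiCo_mm9_circ_005723: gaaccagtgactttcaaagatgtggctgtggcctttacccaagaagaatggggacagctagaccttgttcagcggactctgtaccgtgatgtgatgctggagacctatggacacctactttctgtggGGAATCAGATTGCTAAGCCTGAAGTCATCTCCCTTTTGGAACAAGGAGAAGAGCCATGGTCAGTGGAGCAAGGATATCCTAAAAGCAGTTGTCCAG
Zfp568, CiCo_mm9_circ_005858: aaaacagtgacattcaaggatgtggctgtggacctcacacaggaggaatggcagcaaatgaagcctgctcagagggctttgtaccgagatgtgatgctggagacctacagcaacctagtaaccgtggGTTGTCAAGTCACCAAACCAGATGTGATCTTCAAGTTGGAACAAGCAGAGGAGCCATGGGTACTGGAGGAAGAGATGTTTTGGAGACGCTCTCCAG
The 127-base exons of these genes shared 95 of 127 bases (74.8%) without gaps, with a longest shared run of 20 bases. Over the 6 pairs among Zfp606, Zfp568, Zfp382 and Zfp90, the exons shared 69.3% to 74.8% of bases, and runs were at most 20 bases. The 4 circles were among the low ones, with a mean of 1.30 CPM for Zfp606, 1.197 for Zfp90, 0.77 for Zfp382 and 0.40 for Zfp568.

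The annotated start codon lay inside 22 of the 86 circles with a coding transcript (25.6%, beside 13.4% of all genic circRNAs with one). No circle held an annotated stop codon, which was also rare over all, at 54 of 5039 genic circRNAs with a coding transcript. Followed from that start codon around the circle, 21 reading frames crossed the backsplice junction and stopped at most 136 bases past it, and that of CiCo_mm9_circ_005880 of Zfp536, a single exon, met no stop in 3 turns. The frames had a median of 202 codons, from 15 in Zfp949 to 2069 in CiCo_mm9_circ_004623 of Zfp462. In 4 of the 22 circles the stop came within 6 bases of the junction, so that the frame ended almost where the circle closes. The same was found in 87 of all 674 genic circRNAs with the start codon inside. Their junctions follow with the in-frame stop in capitals and 15 bases from either side of the joint. The frames had 250 codons in Zfp609 exon 2, 223 in the longest Zfp148 circle, 57 in Zfp410 (chr12:85662762-85663969, plus strand) and 2069 in Zfp462 (chr4:55020405-55033079, plus strand). A reading frame is a property of the sequence, and translation was not measured.
Zfp609, CiCo_mm9_circ_006710: gtcaagtctgaaaagcaaTGAtgttgtcca
Zfp148, CiCo_mm9_circ_002354: agaagatccataccggaTAGaagagaagaa
Zfp410, CiCo_mm9_circ_001488: gactaatgttaccaggtTAAattgattacc
Zfp462, CiCo_mm9_circ_004623: tcaaagcccatgctggttccTGAtgtgaga

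C2H2 motifs were searched in the annotated proteins as 2 cysteines separated by 2 residues, 12 residues, and 2 histidines separated by 3 to 5 residues. The search found no motif in the proteins of Zfp608 and Zfp609. Among 80 circles with coding exons in genes whose protein held the motif, 47 encoded at least 1 whole motif and 33 none. In 26 circles of 23 genes the encoded stretch ended before the first motif of the protein, which lies toward the C-terminal end in many of them. Zkscan1 is an example, with residues 1 to 192 in the circle of exons 2 and 3, 192 to 265 in that of exons 4 and 5, and the first motif at residue 377 of 561. The largest number was 26 of the 33 motifs of Zfp462 in CiCo_mm9_circ_004623, and CiCo_mm9_circ_002896 of Zfp521 encoded 23 of 26. The circles of Zfp827 ran from residue 15 to 792 of 1078 and held between 0 and 3 of its 9 motifs.

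**Figure D5:**
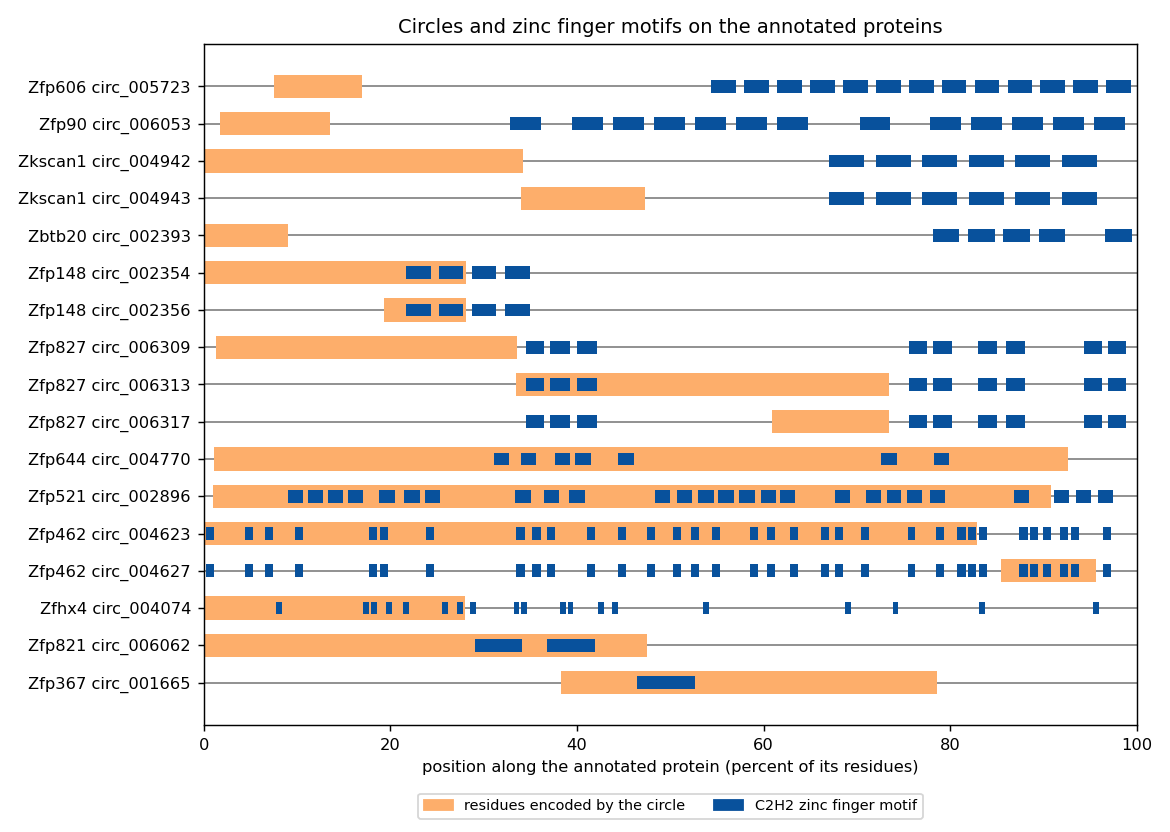
Position along the annotated protein, in percent of its residues, of the residues that 17 circles of 12 genes encode (orange) and of the C2H2 motifs (blue). The circles of Zbtb20 and Zkscan1 end before the first motif, and that of Zfp821 covers both motifs.

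By fold change alone, at least 1.5 was counted as up and at most 0.67 as down at each step, with no test. On this count 41 of the 90 (45.6%, beside 39.7% of all) were steady at both steps, PP to DP and DP to N. Without PP replicate 3 this class held 35, of which 27 were among the 41. At both steps 4 fell, those of Zfp367, Zfhx4, Zfhx3 and Zbtb20 (4.44%, beside 7.42%), and 3 of these stayed in the class without PP replicate 3, where the DP against PP value of Zbtb20 turned from -0.93 to 0.16 in the edgeR fits. At both steps 4 rose, from Zbtb16, Zfp142, Zfp521 and Zfp821 (4.44%, beside 6.38%). A fall followed by no change was seen for 12 (13.3%, beside 8.22%) and no change followed by a fall for 4 (4.44%, beside 14.6%). Of the 12, 9 were more than 2 times higher in PP replicate 3 than in the mean of the other PP libraries, among them circles of Zfp148, Zfp532 and Zfp827, and without that library 3 of the 12 stayed in the class. The pattern of up in DP and down in N held 4 (4.44%, beside 1.53%), from Zfp382, Zfp398, Zfp949 and Zkscan1, whose means were 0.47 to 2.04 CPM, and 2 of these 4 stayed in it without PP replicate 3. With all 9 libraries 6 fell and then rose (6.67%, beside 4.3% of all), and a rise followed by no change was seen for 5 (5.56%, beside 4.83%). Without PP replicate 3 none of the 6 kept that pattern, and a rise followed by no change was seen for 17. No share of all circRNAs is given for the classes without that library. Both steps use the DP libraries, and these classes are a description.

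For comparison, 76 other genes of C2H2 zinc finger factors with established names were listed, of which 25 had 44 circRNAs and 37 of these were tested. Between N and PP 20 were called (54.1%, beside 28.1% of all), 4 higher and 16 lower in N, with a median log2 fold change of -1.04, which was -0.58 without PP replicate 3 and -0.56 without both libraries. Those of Gli3, an effector of Sonic hedgehog signalling, went from 28.7 ± 4.71 CPM in PP to 1.81 ± 0.766 in N (SD, n = 3) for its most abundant circle, CiCo_mm9_circ_001571. Bcl11b, a factor of subcortical projection neurons, gave CiCo_mm9_circ_001255, with 3.44 ± 3.86 CPM in PP and 85.9 ± 53.0 in N, and Rest, a repressor of neuronal genes, gave CiCo_mm9_circ_005208, with 7.22 ± 1.31 and 0.738 ± 0.469. Between N and DP 16 were called (43.2%, beside 18.8% of all). Between DP and PP edgeR called 0 (beside 1.86%), but 2 without PP replicate 3 (5.41%, beside 3.9%), 3 without N replicate 1 (8.11%, beside 2.96%) and 10 without both (27%, beside 14%). Gli3 and Bcl11b are also in the marker lists, and this list was drawn up with results of these data known.

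In the same way, 57 transcription factor genes of other families known in cortical neurogenesis gave 73 circRNAs from 25 genes, of which 67 were tested. Of these, 39 (58.2%, beside 28.1% of all) were called between N and PP, 24 higher and 15 lower, and 28 (41.8%, beside 18.8%) between N and DP. Between DP and PP 4 (5.97%, beside 1.86%) were called, all higher in DP, while 5 higher and 3 lower were called without PP replicate 3 and 16 higher and 9 lower without both libraries. The called circles of Sox5, a factor of deep layer neurons, were higher in N, and those of Tead2 and Meis2 were lower. CiCo_mm9_circ_005369 of Sox5 rose from 5.86 ± 0.856 CPM in PP to 48.9 ± 23.5 in N, and CiCo_mm9_circ_005904 of Tead2 went from 24.0 ± 0.882 to 1.90 ± 1.04. The zinc finger circRNAs named by number had a smaller called share than either list with all 9 libraries, at 5.19% between N and PP. Without both libraries the shares were 41.8%, 62.2% and 65.7%, and the difference between the lists was not tested.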

How the data were processed

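The authors sorted PP, DP and N cells, digested RNA with RNase R and sequenced 150-base single-end reads. These were aligned by gsnap against mm9 with Ensembl annotation, and find_circ then predicted the circRNAs. The submitters' processing notes name bcl2fastq 1.8.4 and Subread 1.6.0 with featureCounts. The deposited values are whole-number read counts per circRNA and library, which the authors did not normalize. How reads over several circRNAs were counted is not given in the sources used here. Total counts were 2962787 to 3959379 in PP, 6569620 to 8015311 in DP and 5772646 to 6759985 in N. Most of these reads lay in high-count entries, outside which counts were 83572 to 198114 in PP, 269894 to 287374 in DP and 102958 to 287983 in N. The median count per circRNA was 7 in PP replicate 3, 6 in N replicate 1 and 12 to 27 in the other libraries.

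CPM was computed here with TMM effective library sizes, and RPKM as CPM per kilobase of counted length. Differences were tested by the quasi-likelihood test of edgeR 4.0.16, run in R 4.3.3 (filterByExpr, 1 model over 9 libraries without a block, Benjamini-Hochberg adjustment over all circRNAs tested, threshold 0.05). Patterns used DESeq2 1.42.0 fold changes without shrinkage, at the study's cut-offs of 1.5 and 0.67. Python 3.11.15 with numpy 2.4.6, pandas 2.3.3, scipy 1.17.1, pysam 0.24.0 and matplotlib 3.10.9 served the rest. Sequences came from mm9 and exons, start codons and proteins from GENCODE vM1, which is not the authors' annotation release. For each circle the annotated transcript whose exons match its ends was used.

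The biological coefficient of variation was 0.296. No replicates agreed within sampling noise (the lowest chi-square divided by its degrees of freedom was 8.56, between DP replicates 1 and 2), and each library counts as 1 sample. In simulated counts for N against PP, with 4538 circRNAs tested, edgeR recovered 81.2% and 96.0% of circRNAs with a log2 fold change of -2 and 2, and 38.0% and 68.0% of those with -1.5 and 1.5. The simulation gave all circRNAs and libraries the same spread. It put changes only into circRNAs above a minimum expected count from genes with several circRNAs. In the data, the log2 ratio of a library to its replicates had an SD over the zinc finger circRNAs of 1.16 in PP replicate 3 and 0.24 in DP replicate 3. Recovery was not worked out for the zinc finger circRNAs alone.

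Members, gene lists and tests were chosen with earlier results of these data known. circRNAs named are up to 8 per contrast and direction with the smallest p among those called, the 8 most and 3 least abundant, those of genes with 3 or more, and those of Zfp609, Zkscan1, Zfhx3, Zfhx4, Zbtb20, Zbtb18, Zfp148 and Zfp451. Others are named as counts, as examples of structure or as members of a pattern class of few circRNAs, chosen after their values were seen. A further gene with a symbol of this kind is not reported here. Alternatives were RLE or total-count scaling, other filters, leaving out high-count entries, DESeq2, a replicate block, each library left out, fits of the contrast's libraries alone and a test against a fold change of 1.5.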

Additional observations from a re-analysis of the deposited data

How the results depend on the processing

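The number of zinc finger circRNAs called between N and PP was 4 and went to 2 with at least 10 counts required in every library (45 of them and 1262 circRNAs in all kept), to between 3 and 23 with 1 library left out, and to 33 without PP replicate 3 and N replicate 1. Between N and DP it was 3, and 1 with total counts, 1 with at least 10 counts, 6 with the libraries of the contrast alone, 1 to 10 with 1 library left out (1 without DP replicate 3) and 13 without both libraries. Between DP and PP it was 0, and 0 to 1 with 1 library left out and 13 without both. For any difference it was 4 (5.19%, beside 25% of all circRNAs), and 2 with total counts and 1 with at least 10 counts. With 1 library left out it was 3 to 17, the latter without PP replicate 3 (21.5%, beside 32.7%). Without both libraries it was 29 (36.7%, beside 43.3%). Over all circRNAs, N against PP gave 1236 calls, and 649 with total counts, 282 with at least 10 counts, 735 with the contrast's libraries alone, 984 to 1638 with 1 left out and 1988 without both. N against DP gave 830, and 407, 134, 551 against a fold change of 1.5, 554 to 1239 and 1600 without both. DP against PP gave 82, and 22 with total counts, 12 with at least 10 counts, 44 against a fold change of 1.5, 37 to 183 with 1 left out and 659 without both. Total-count scaling moved the median log2 fold change of all circRNAs from -0.09 to -0.37 for N against PP and from -0.02 to -0.37 for N against DP, and that of the zinc finger circRNAs to -0.18 and -0.27. For DP against PP it moved them from -0.06 to 0.02 and from -0.27 to -0.12.

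The sample titles and the paper do not state whether libraries with the same replicate number were paired. Same-numbered libraries correlated by -0.04 on average (-0.26 to 0.30 over 9 pairs), beside 0.03 for the others (-0.34 to 0.32). These correlations rest on deviations from means of 3 libraries, so they cannot decide whether the libraries were paired. With a replicate block the zinc finger calls were 4, 2, 0 and 3 for any difference, and those over all circRNAs 1061, 695 and 48. Zfp821 then missed the threshold between N and DP (log2 fold change 0.93, edgeR adjusted p = 0.0719), and CiCo_mm9_circ_002356 had -0.0158.

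Without PP replicate 3, 15 of 77 log2 fold changes of N against PP turned sign, and 5 of these, from Zfp532 and Zfp827, were then called. No such count was made over all circRNAs, and overlapping circles of a gene share reads. The circRNAs followed through each alternative turned sign as follows, none of them called where its sign turned. Without PP replicate 3, and without both libraries, the Zfp148 circles CiCo_mm9_circ_002352, CiCo_mm9_circ_002353 and CiCo_mm9_circ_002354 had 0.28 and 0.15, 0.15 and 0.0444, and 0.32 and 0.16. With 1 library left out they ran from -1.34 to 0.28, from -1.35 to 0.15 and from -1.12 to 0.32. CiCo_mm9_circ_002355 had -0.20 with total counts, -0.12 with at least 10 counts, -0.0293 with the contrast's libraries and -0.26 to 0.58 with 1 library left out. CiCo_mm9_circ_002356 had -0.19 with total counts, -0.0253 with DESeq2, -0.0582 with the contrast's libraries and -0.41 to 0.61 with 1 left out. Zkscan1 had -0.0879 with total counts and -0.0094 to 0.37 with 1 left out for CiCo_mm9_circ_004942, and -0.70 to 0.25 with 1 left out for CiCo_mm9_circ_004943. Zbtb20 missed the threshold between N and PP without N replicate 2 (-1.77, edgeR adjusted p = 0.0781) or N replicate 3 (-2.02, 0.0661), Zfhx4 between N and DP with total counts (-2.23, 0.0787), without DP replicate 3 (0.0548) and without N replicate 3 (0.0635), and Zfp821 between N and DP in 7 of 19 alternatives. The Zfp148 circle CiCo_mm9_circ_002352 passed only without PP replicate 2, at -1.34 with an adjusted p of 0.0488. Ordered by RPKM, 4 of the 8 most abundant stayed among the 8. The test within genes called 0 in each of 12 alternatives. The cause was not tested for any of these.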
